A study of Arabidopsis thaliana with 6 samples.

Results

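The genes listed for this description encode proteins of the small (40S) subunit of the cytosolic ribosome in Arabidopsis, from Sa to S23. A probe set was a member where the platform annotation named one of 60 listed genes. This gave 37 probe sets of the 22746 tested, which cover 43 of the listed genes and 19 proteins. Of these, 31 name a single gene and 6 name several near-identical genes and are called the shared probe set of their protein. The other 17 listed genes have no probe set in the platform annotation and were skipped in the main counts. They include all listed genes for Sa, S5, S6, S15a and S18, so these proteins have no member probe set.

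RNA of whole shoots (the aerial part of young plants) was measured on ATH1 arrays, 3 from the eif3k mutant and 3 from wild-type, both in the Columbia background. In the mutant, a T-DNA lies in intron 6 of eIF3k, which codes for a subunit of the initiation factor eIF3. The mutant is described as making a truncated transcript and no full-length one. Per the labels, plants of both genotypes were 11 days old, were grown at 22 °C with 16 h of light on 0.8% agar with 1% sucrose, and were collected 4 h into the light period. Continuous light is given in the study's methods, and the sources used here do not settle which holds. For each genotype, the labels place replicates 1 and 2 on a first array date and replicate 3 on a second, later date, so the date cannot be told apart from the growth of replicate 3. Nothing in the labels says how many plants an array stands for, and p-values measure the spread between these arrays.

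The 40S subunit binds the mRNA, with the help of initiation factors such as eIF3, and holds the site where codons are read. It has a head and a body, with a platform on the side where the mRNA leaves and an entry channel where the mRNA comes in. In Arabidopsis each of its proteins is encoded by several paralogous genes, and their transcripts are abundant in growing tissue. The members are described below by the place of their protein in the subunit: 7 probe sets for proteins near the mRNA entry (S2, S3, S9), 6 for the platform (S3a, S13, S14), 13 for the head (S10, S12, S15, S16, S17, S19, S20) and 11 for the body (S4, S7, S8, S11, S21, S23).

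The targeted transcript itself was lower in the mutant. The eIF3k probe set had log2 signals of 6.81, 6.62 and 7.52 in eif3k and 8.82, 9.18 and 8.89 in wild-type, and the groups did not overlap. The difference of -1.98 (SE 0.28) is 3.94-fold lower in the mutant, with an unadjusted p of 0.00152 and an adjusted p of 0.864 in limma over all probe sets.

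The arrays had median signals between 4.02 and 4.12, and 25.5% to 26.8% of signals on an array equalled the lowest value, 2.25. Both arrays of the later date stood apart in control probe sets. The 25S ribosomal RNA control read 8.13 on eif3k replicate 3 and 12.04 to 12.87 on the other 5 arrays. The log2 signal of the 3′ over the 5′ probe set of a control transcript, a sign of RNA quality, was 3.99 for actin and 5.02 for GAPDH on wild-type replicate 3, against 3.04 to 3.19 and 3.92 to 4.18 on the other 5. For ubiquitin it was 2.23 and 2.24 on the later arrays of eif3k and wild-type and 1.64 to 1.74 on the first date. The leaf list matched 2 of 8 genes, with summed linear signals of 39448 to 47747 over the arrays. The root list matched 2 of 7 genes, of which 1 was under a log2 signal of 3 on all arrays, and its summed signal was 1356 to 1876 on the first date except for 2783 on eif3k replicate 2, and 2745 and 3130 on the later date. The list for dividing cells matched only 2 of 8 genes, AT2G28740 and AT1G07820, both for histone H4. They were matched through the same 5 probe sets, which also name other H4 genes. The summed signal of these probe sets was 3839 on eif3k replicate 3 and 5141 to 6683 elsewhere. None of the flower and seed markers was matched.

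The members mostly had signals well above the floor. The median of their mean log2 signals was 10.30; 31 of the 37 had a mean of at least 8 and 22 of at least 10. RPS8A (AT5G20290), for a protein that binds ribosomal RNA in the body of the subunit, had the highest mean signal, with 12.89, 12.80 and 12.73 in eif3k and 12.48, 12.71 and 12.59 in wild-type. RPS8B (AT5G59240), its paralogue, had the lowest mean signal, with 3.37 on each eif3k array and 3.36, 3.51 and 3.36 in wild-type. RPS8B lay near the floor on all 6 arrays, where a difference cannot be seen. Signals of different probe sets also depend on their probes, so these means show where a probe set lies in the range of the array and are no measure of which transcript is more abundant. Between probe sets, only changes were compared.

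On average over the replicates, the 40S transcripts did not differ between the genotypes beyond the spread of the arrays. None of the 37 was called (limma, adjusted p under 0.05 and at least 2-fold), and none of all 22746 probe sets was, which is 0%. At an unadjusted p under 0.05 there was 1 member, RPS8A, against 3.05% of all probe sets. The median difference of the members was -0.03, with 16 higher and 20 lower in eif3k, and the differences ran from -0.47 to 0.21. The median of all probe sets was 0.00. In RNA of whole shoots, fewer cells of a type and less RNA per cell cannot be told apart. With the replicate number as a block (a paired fit), the median stayed at -0.03 and 0 members were called, as were 0 of all probe sets. No member was left at an unadjusted p under 0.05, against 4.79% of all probe sets.

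In replicates 1 and 3, however, nearly all members lay on the same side of 0. In replicate 1 the mutant array was higher than the wild-type array for 36 of 37 members, with a median difference of 0.37. In replicate 2 the median was -0.05, with 15 members higher and 22 lower. In replicate 3 the mutant was lower for 33 of 37 members, with a median of -0.31. Of all probe sets with a mean signal of at least 4, 46.6% were higher in replicate 1, 45.9% were higher in replicate 2 and 46.6% were lower in replicate 3, with medians of -0.01, -0.01 and 0.01. Only 2 members, RPS8A and AT3G60770, were higher in the mutant in all 3 replicates, and none was lower in all 3; among probe sets with a mean signal of at least 4 the shares were 13.3% and 14%.

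**Figure D1:**
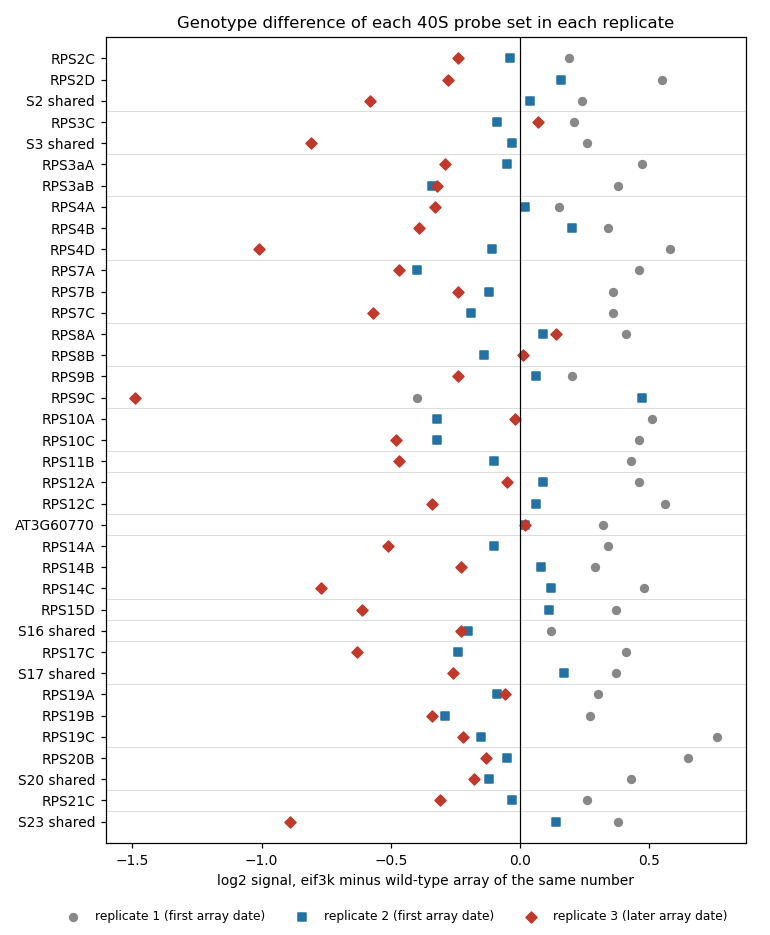
Difference in log2 signal between the eif3k and the wild-type array of each replicate (x axis) for the 37 probe sets, grouped by protein (y axis). Grey circles (replicate 1) lie right of 0 for 36 probe sets, and red diamonds (replicate 3) lie left of 0 for 33, while blue squares (replicate 2) run from -0.40 to 0.47 on both sides of it.

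The same-date arrays of one genotype also differed from each other. Wild-type replicate 1 was below replicate 2 for 36 of 37 members, by a median of -0.26, while eif3k replicate 1 was above eif3k replicate 2 for 33 members, by a median of 0.12. Among probe sets with a mean signal of at least 4 the shares were 47.7% and 49.1%. Of the 130 probe sets of the large (60S) subunit, 107 and 89 had these signs. The labels describe the arrays of a genotype alike. Within the first date, deviations from the group means correlated at 0.247 and 0.378 for like-numbered arrays and at 0.308 and 0.395 for unlike-numbered ones. How the first-date difference splits between replicates 1 and 2 therefore depends on which arrays are matched. The medians between replicates of a genotype were of the same order as those between genotypes. Leaving out single arrays turned the sign of the median genotype difference. It was 0.14 without eif3k replicate 3 (6 members at an unadjusted p under 0.05, against 3.85% of all probe sets, and none called), 0.06 without wild-type replicate 2 and 0.02 without wild-type replicate 3. It was -0.11 without eif3k replicate 1 and -0.09 without wild-type replicate 1.

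**Figure D2:**
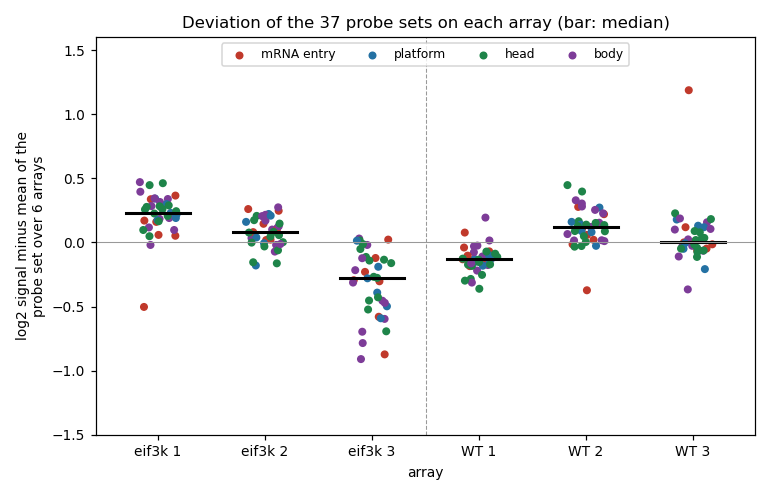
Log2 signal of each of the 37 probe sets minus its own mean over the 6 arrays (y axis) on each array (x axis; WT, wild-type), coloured by the place of the protein in the subunit, with the median as a bar. The medians are 0.23, 0.08 and -0.28 on the eif3k arrays and -0.13, 0.12 and 0.00 on the wild-type arrays, so eif3k replicate 3 is the lowest and eif3k replicate 1 the highest.

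Of the proteins near the mRNA entry, S3 lies at the mouth of the entry channel and S2 and S9 line it. The shared probe set of S3 read 11.53, 11.44 and 10.32 in eif3k and 11.27, 11.47 and 11.13 in wild-type. It was low on eif3k replicate 3 alone. RPS3C (AT5G35530), its paralogue, read 11.22, 11.19 and 11.19 in eif3k and 11.01, 11.28 and 11.12 in wild-type, a range of only 0.27 over all 6 arrays. The genotypes overlapped for both. The difference of RPS3C was 0.06 (SE 0.08, unadjusted p = 0.445, adjusted p = 1 in limma).

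The S2 probe sets were also unequal. RPS2C was among the 4 steadiest members, with 11.46, 11.42 and 11.28 in eif3k and 11.27, 11.46 and 11.52 in wild-type. The shared probe set of S2 read 12.45, 12.54 and 11.70 in eif3k against 12.21, 12.50 and 12.28 in wild-type, and was again low on eif3k replicate 3 alone. RPS2D gave differences of 0.55, 0.16 and -0.28 in the 3 replicates.

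RPS9C (AT5G39850) showed the widest range of any member, 1.69. It read 4.32, 4.92 and 4.52 in eif3k and 4.72, 4.45 and 6.01 in wild-type, so that its spread came mainly from a single high wild-type array. Its genotype difference of -0.47 (SE 0.49, unadjusted p = 0.384, adjusted p = 1) was the largest among the members and within the spread. Without wild-type replicate 3 it was 0.00. RPS9B, its paralogue, read 11.38, 11.30 and 10.99 in eif3k and 11.18, 11.24 and 11.23 in wild-type.

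Among the platform proteins, S3a and S13 are known from mammalian structures to lie where eIF3 contacts the subunit, and S14 lies near the mRNA exit. AT3G60770, an S13 gene, read 10.57, 10.39 and 10.41 in eif3k and 10.25, 10.37 and 10.39 in wild-type. The arrays of the genotypes overlapped, and the difference was 0.12 (SE 0.07, unadjusted p = 0.149, adjusted p = 1). RPS3aA and RPS3aB gave differences of 0.47 and 0.38 in replicate 1 and -0.29 and -0.32 in replicate 3. The 3 S14 paralogues were alike in replicate 1, at 0.34, 0.29 and 0.48 for RPS14A, RPS14B and RPS14C. They differed in replicate 3, at -0.51, -0.23 and -0.77. The platform median was 0.36, -0.02 and -0.31 over the 3 replicates.

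The head proteins include S15 and S16, which reach toward the tRNA sites, S10 and S12 of the beak, and S19, which in yeast and human is needed to mature the subunit. RPS12A (AT1G15930) read 11.56, 11.41 and 11.34 in eif3k and 11.10, 11.32 and 11.39 in wild-type, a difference of 0.17 (SE 0.10, unadjusted p = 0.178, adjusted p = 1). The shared probe set of S16 was among the steadiest members and read 12.21, 12.10 and 12.02 in eif3k and 12.09, 12.30 and 12.25 in wild-type. Its difference was -0.10 (SE 0.08, unadjusted p = 0.261, adjusted p = 1). Both overlapped between genotypes.

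RPS20B (AT3G47370) read 10.19, 9.90 and 9.85 in eif3k and 9.54, 9.95 and 9.98 in wild-type, where the first wild-type array stood below the rest. Its difference was 0.16 (SE 0.17, unadjusted p = 0.402, adjusted p = 1), and 0.02 without wild-type replicate 1 or 0.05 without eif3k replicate 1. RPS19B (AT5G15520) read 6.25, 5.99 and 6.04 in eif3k and 5.98, 6.28 and 6.38 in wild-type, a difference of -0.12 (SE 0.14, unadjusted p = 0.429, adjusted p = 1). All 13 head probe sets were higher in the mutant in replicate 1, by 0.12 to 0.76, and lower in replicate 3, by differences of -0.63 to -0.02. The highest in replicate 1 was RPS19C, and the lowest in replicate 3 was RPS17C.

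Among the body proteins, S23 lies at the decoding centre, and S4, S8 and S11 bind ribosomal RNA. RPS8A was the sole member whose eif3k arrays all lay above its wild-type arrays, which held for 2.71% of all probe sets and 4.52% of those with a mean signal of at least 4. Its difference was 0.21 (SE 0.08), with an unadjusted p of 0.046 and an adjusted p of 1. RPS4D (AT5G58420) read 10.13, 9.83 and 8.75 in eif3k and 9.55, 9.94 and 9.76 in wild-type, and its lowest array was again eif3k replicate 3. RPS4A (AT2G17360) read 9.87, 9.80 and 8.83 in eif3k and 9.72, 9.78 and 9.16 in wild-type, so it was low on the later date in both genotypes. The 3 S7 paralogues gave differences of 0.46, 0.36 and 0.36 in replicate 1 and -0.47, -0.24 and -0.57 in replicate 3 for RPS7A, RPS7B and RPS7C.

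The second comparison asked how the members differed between array dates, with genotype in the fit. None of the 37 was called, against 0.334% of all probe sets, and 1 was at an unadjusted p under 0.05, against 14.6%. The median difference, later minus first date, was -0.19, with 7 members higher and 30 lower, against 0.00 over all probe sets. RPS4A had the largest difference, at -0.80 (SE 0.12, unadjusted p = 0.00427, adjusted p = 0.127 in limma). Its adjusted p was 0.0272 when dim probe sets were left out, at the same difference, which is under 2-fold. At that setting, 1 of 36 members was under an adjusted p of 0.05 in limma, against 1023 of 11523 probe sets. Without wild-type replicate 3 the difference was -1.01 (adjusted p = 0.0371), and RPS4A was the 1 member called, against 0.875% of all probe sets. The later date is then eif3k replicate 3 alone, and its spread is taken from the first-date arrays. The next were the shared probe set of S3 at -0.70 (adjusted p = 0.389), RPS9C at 0.66 (adjusted p = 0.626) and RPS4D at -0.61 (adjusted p = 0.563). That of S3 was -0.24 without eif3k replicate 3 and -1.17 without wild-type replicate 3.

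The date difference was not alike in the genotypes. In eif3k the later array was lower for 36 of 37 members, with a median of -0.46 and values down to -1.23. That array was lower for 49.0% of probe sets with a mean signal of at least 4 and for 113 of 130 60S probe sets. In wild-type the later array was higher for 22 members and lower for 15, with a median of 0.04. Without eif3k replicate 3 the median date difference was 0.04, and without wild-type replicate 3 it was -0.46. Eif3k replicate 3 was below both other eif3k arrays for 31 members, which was true of 38.3% of probe sets with a mean signal of at least 4. It was below the other 5 arrays for 22 members, against 23.8%.

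The interaction gives this directly: the genotype difference on the later date minus that on the first date, where the later date has 1 array per genotype, assumed to vary like those of the first. Its median over the members was -0.50, against 0.00 over all probe sets and 0.04 over those with a mean signal of at least 4. It was below 0 for 35 of 37 members, against 45.7% of probe sets with a mean signal of at least 4. None of the members was called (limma, adjusted p under 0.05), against 3.67% of all probe sets and 1.42% of those with a mean signal of at least 4. At an unadjusted p under 0.05 there were 8 members, all lower, which is 21.6% against 6.34% of all probe sets and 5.74% of those with a mean signal of at least 4. The interaction rests on both later arrays. The ribosomal RNA control (8.13) and the summed histone H4 signal were low on eif3k replicate 3, the 3′ over 5′ values of actin (3.99) and GAPDH (5.02) were high on wild-type replicate 3, and that of ubiquitin was high on both; their part in the interaction was not tested.

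The 8 members are named here after their values were seen: RPS4A, RPS4B, RPS9B, RPS14C, RPS15D and the shared probe sets of S3, S17 and S23. RPS4B had the smallest p, with an interaction of -0.66 (SE 0.09, adjusted p = 0.151). The shared probe set of S23 read 12.69, 12.50 and 11.51 in eif3k and 12.31, 12.36 and 12.40 in wild-type, an interaction of -1.15 (SE 0.16, adjusted p = 0.158). RPS14C read 9.43, 9.34 and 8.54 in eif3k and 8.95, 9.22 and 9.31 in wild-type, an interaction of -1.07 (SE 0.23, adjusted p = 0.288). In both, eif3k replicate 3 was the lowest array. The interaction was -0.93 for the shared probe set of S3 (adjusted p = 0.251) and -0.85 for RPS15D (adjusted p = 0.261). The 2 members above 0 were RPS3C at 0.01 and RPS8B at 0.08, and RPS8A had -0.11.

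By place in the subunit, the median interaction was -0.64 for the mRNA entry, -0.46 for the platform, -0.43 for the head and -0.50 for the body. It was below 0 for 6 of 7, 6 of 6, 13 of 13 and 10 of 11 probe sets. Each group spanned members near 0 and members well below it, from -1.53 to 0.01 for the entry, -1.07 to -0.15 for the platform, -0.85 to -0.12 for the head and -1.25 to 0.08 for the body. The groups overlapped throughout.

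Paralogues of one protein were then compared through their difference within each array, which removes what moves both alike. The 37 probe sets gave 23 pairs in 13 proteins. No pair reached an exact permutation p below 0.05 between genotypes, and with 3 arrays against 3 the smallest possible is 0.1. RPS8A minus RPS8B reached that bound, at 9.52, 9.43 and 9.36 in eif3k against 9.12, 9.20 and 9.23 in wild-type, a shift of 0.25 (exact permutation p = 0.1, 0.941 after adjustment over the 23 pairs, 2-sided). It was positive in all 3 replicates, at 0.40, 0.23 and 0.13. RPS8B lay near the floor, so this pair gives little beyond the difference of RPS8A itself.

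The largest shift was that of RPS9B minus RPS9C at 0.48, with 0.60, -0.41 and 1.25 in the 3 replicates (exact permutation p = 0.5, adjusted 0.941). It was 0.01 without wild-type replicate 3, 0.80 without wild-type replicate 2 and 0.10 on the first date alone. RPS3C minus the shared probe set of S3 shifted by 0.26, with -0.05, -0.06 and 0.88 (exact permutation p = 0.9, adjusted 0.941). The replicates of the first date thus gave almost no shift, and without eif3k replicate 3 it was -0.13. RPS19B minus RPS19C shifted by -0.25, with -0.49, -0.14 and -0.12 (exact permutation p = 0.3, adjusted 0.941). Of the 23 pairs, 6 had the same sign in all 3 replicates. Proteins with 3 probe sets give pairs that share a probe set. The same count was not made for other probe sets, so nothing is concluded from it.

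**Figure D3:**
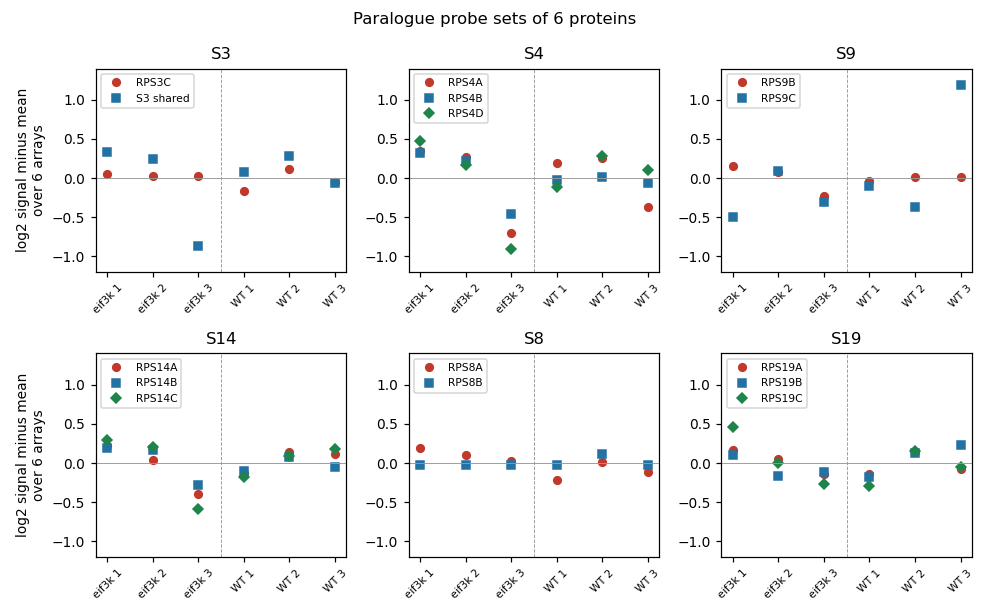
Log2 signal of each paralogue probe set minus its own mean over the 6 arrays (y axis), by array (x axis; WT, wild-type), for 6 proteins. On eif3k replicate 3 the shared probe set of S3 reads 10.32 and RPS3C 11.19, against 11.44 and 11.19 on eif3k replicate 2, and for S9 the value that stands apart is RPS9C on wild-type replicate 3, at 6.01.

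Paralogues differed most in replicate 3. The median absolute difference between paralogues in their genotype change was 0.14, 0.18 and 0.28 in replicates 1, 2 and 3. The SD of the genotype change within proteins was 0.19, 0.15 and 0.33, and the SD over all 37 members was 0.20, 0.18 and 0.33. Paralogues of one protein were thus spread about as widely as the members as a whole. Both SDs of replicate 3 include RPS9C, of low mean signal (4.82), with its single high wild-type array at 6.01. RPS9B minus RPS9C was the largest paralogue difference there, at 1.25, and the SDs without it were not computed. In replicate 3, 5 pairs differed by at least 0.5, against 1 pair in replicate 1 and 0 in replicate 2. For S4, the replicate 3 differences were -0.33 for RPS4A, -0.39 for RPS4B and -1.01 for RPS4D.

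The 40S members were set beside the proteins of the large (60S) subunit, with which they form the ribosome. The 130 probe sets of the 60S subunit had medians of 0.34, 0.00 and -0.34 in replicates 1, 2 and 3, and a median interaction of -0.49, with 117 below 0. At an unadjusted p under 0.05, 27 of them (20.8%) were lower in the interaction, and 1 of the 130 was called. The 16 probe sets that only the study's supplement pairs with the skipped genes had medians of 0.33, 0.01 and -0.29, and 33 other small-subunit probe sets had 0.23, 0.00 and -0.31. The sets differ in their share of dim probe sets. With these left out, the median interaction was -0.55 for 115 60S probe sets, -0.585 for 24 other small-subunit ones and -0.50 for 36 members. The pattern over the replicates was thus the same in sign for both subunits in replicates 1 and 3, and a difference between the subunits was not tested. With the arrays centred on the 60S probe sets, the median genotype difference of the members was -0.01, against -0.03 without centring. Of the members 0 were called, against 7 of all 22746 probe sets (0.0308%). The medians by replicate and of the interaction were not computed after this centring.

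**Figure D4:**
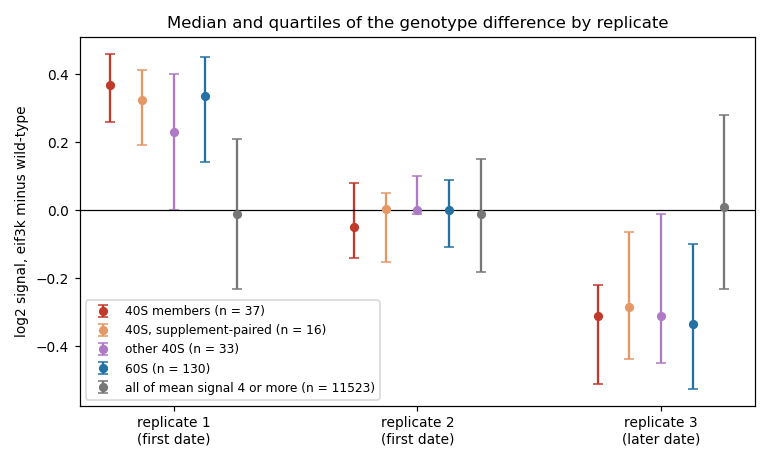
Median (point) and quartiles (bars) of the difference in log2 signal between the eif3k and the wild-type array (y axis) in each replicate (x axis), for 5 sets of probe sets with their sizes. All 4 ribosomal sets have medians above 0 in replicate 1 and below 0 in replicate 3, and the median of all probe sets with a mean signal of at least 4 stays within 0.01 of 0.

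The list of eIF3 subunits matched 4 of 17 genes in the platform annotation, with eIF3k itself found through the study's supplement, and the list of 40S partners (RACK1, S6 kinase, TOR and nucleolar proteins) matched none of 9. The eIF3 probe sets differed between genotypes by -0.14 to 0.25. AT4G20980 read 7.94, 7.76 and 6.88 in eif3k and 7.67, 7.59 and 7.73 in wild-type, and was low on eif3k replicate 3 as most 40S members were. AT5G44320 read 8.27, 8.09 and 7.95 in eif3k and 8.04, 8.14 and 8.07 in wild-type.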

How the data were processed

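The deposited values are log2 signals of 22810 probe sets on 6 ATH1 arrays. The authors' processing notes list GCRMA (version not given in the sources used here); log2 was inferred from GCRMA and from the span of the values. Since GCRMA makes the distributions of the arrays alike, a change common to all transcripts would not be seen. The study's own analysis used RMA. After 64 controls were left out, 22746 probe sets were tested with limma 3.58.1, run in R 4.3.3 (eBayes after lmFit, 2-sided, Benjamini-Hochberg over all probe sets, adjusted p under 0.05 and at least 2-fold; the interaction by adjusted p alone). Paralogue pairs were tested by exact permutation in SciPy 1.17.1. The prior had 0.388 degrees of freedom. The 3 arrays per genotype limit the precision.

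Members were taken from the platform annotation, updated through RefSeq locus tags. The study's supplement, used as annotation only, gave the protein family, the paralogue letters, the 60S probe sets and the added probe sets. Members and lists were chosen with earlier results of these data known. Named were eIF3k; the 8 members of smallest unadjusted genotype p, since none passed the threshold; the 4 with the largest date difference; the 4 paralogue pairs with the largest shift; the members of highest and lowest mean signal; the 4 steadiest; and those in the closing section. The grouping by place in the subunit was added later.

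The replicate numbers were used as pairs: deviations from the group means correlated at 0.247, 0.378 and 0.542 between same-numbered arrays, across probe sets. Within the first date, unlike numbers correlated at 0.308 and 0.395 too. The limma fit was tested on simulated data of 22746 probe sets for eif3k against wild-type, with 50 probe sets of above-median signal changed at each fold size. Recovery was 12% at 2-fold, 54% at 4-fold, 80% at 8-fold and 96% at 16-fold, and there was 1 false call. The simulated noise was drawn independently for each array and probe set, with the SD of the probe set over all arrays. It held no differences shared by an array or a date, so these shares may not hold for the real arrays. Alternatives were blocks for replicate and date, the first date alone, 2 other centrings, a filter on dim probe sets, another prior, array weights, other thresholds, other member sets and each array left out.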

Additional observations from a re-analysis of the deposited data

Results flagged for a closer look

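For 12 of the 37 members, the genotype difference was above 0 in both replicates of the first date and below 0 in replicate 3, against 9.33% of probe sets with a mean signal of at least 4. The same signs were found for 52 of the 130 60S probe sets. They were also found for 6 of the 16 probe sets that only the study's supplement pairs with the skipped genes. These signs were thus not confined to the 40S members, and a difference between the sets was not tested. The interaction of each of the 12 members was tested with limma, and none passed an adjusted p under 0.05. It had to be below 0 for each, because they were chosen by the signs of the same differences. In the mRNA entry group it was -0.72 for the shared probe set of S2, -0.64 for RPS2D and -0.37 for RPS9B. On the platform it was -1.07 for RPS14C and -0.42 for RPS14B. In the head it was -0.85 for RPS15D, -0.65 for RPS12C, -0.53 for the shared probe set of S17 and -0.33 for RPS12A. In the body it was -1.15 for the shared probe set of S23, -0.66 for RPS4B and -0.42 for RPS4A. RPS4A was higher in the mutant by 0.15 and 0.02 on the first date and had -0.33 on the later one (adjusted p = 0.230). RPS9B had differences of 0.20, 0.06 and -0.24 (adjusted p = 0.293), and RPS12A had 0.46, 0.09 and -0.05 (adjusted p = 0.812).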

How the results depend on the processing

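No member was called between genotypes under any alternative that kept the threshold. Of all probe sets none was either, except 7 (0.0308%) with centring on the 60S probe sets. At an unadjusted p under 0.05 there was 1 member in the main fit, against 3.05% of all probe sets. The other fits gave 0 to 6 members, the 6 without eif3k replicate 3, against 3.85% of all probe sets. Between array dates, 1 member was at an unadjusted p under 0.05, and leaving out single arrays gave 0 to 1 called, the 1 being RPS4A without wild-type replicate 3, where the later date is 1 array and its spread is assumed from the others. For the interaction, 8 were at an unadjusted p under 0.05, all lower, which is 21.6% against 6.34% of all probe sets. With a first-date array left out, 1 array of its genotype is left on each date, so only the medians of these fits are given. Over all probe sets, the 834 interaction calls became 55 after centring on the median above the floor and 0 with the filter on dim probe sets, and the 76 date calls became 298 and 475, and 4 with the other prior. The replicate block changed no call. Leaving out single arrays moved the median genotype difference between -0.11 and 0.14, the median date difference between -0.46 and 0.04, and the median interaction between -0.64 and -0.33; on the first date alone the genotype median was 0.13, and with array weights 0.08. The leave-one-out interaction was added after seeing the data.

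RPS9C between genotypes was 0.035 on the first date alone, and leaving out single arrays gave -0.78 to 0.00167. Between dates, leaving out single arrays gave -0.10 to 1.425 for RPS9C and -1.23 to 0.015 for RPS4D. The shift of RPS3C against the shared probe set of S3 was -0.055 on the first date alone and -0.13 to 0.46 without single arrays. Centring, the filter on dim probe sets and the prior changed the sign of no median and no member call. Neither did added probe sets or single-gene probe sets. With the filter, RPS4A was past the adjusted threshold at -0.80, under 2-fold, as were 1023 of 11523 probe sets at any fold change. Depth is not defined for arrays; at the floor no difference can be seen, and the simulation recovered 12% of 2-fold changes.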
